A study of Zea mays subsp. mays and Zea mays subsp. parviglumis and Zea luxurians with 126 samples.

Results

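The 24-nt phasiRNA cis sites are places on a 24-PHAS locus where RNA 5′ ends were found at the position predicted to be cut by a phasiRNA made from that same locus. They were taken as every row of the phasiRNA cleavage tables whose small RNA and target carried the same variety, size and locus number. The rule found 436 listed sites on 232 loci, out of 88804 listed phasiRNA sites in all. Of the 436 sites, 424 passed an adjusted p-value of 0.05, on 228 loci, which is 97.2% of the listed members, against 5.41% of all listed phasiRNA sites. The 21-nt cis sites passed at a like rate, 615 of 622 (98.9%). For each locus the authors had used only the most abundant ("major") small RNA as a source, so a locus could normally show 1 cis position.

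The study staged *Zea* anthers by length and mapped 5′ ends of capped and cleaved RNA with nanoPARE, paired with Smart-seq2 libraries of the same RNA. The meiotic groups were 1.5-mm anthers of the teosintes TIL11 (*Z. mays* ssp. *parviglumis*), TIL25 (ssp. *mexicana*) and RIL003 (*Z. luxurians*), 2-mm anthers of TIL11, and 2-mm anthers of the maize lines B73, HP301, Il14H and Oh43. The premeiotic groups were 0.4-mm anthers of all 7 varieties and 0.7-mm anthers of TIL11 and RIL003, and 1-mm TIL11 anthers belonged to neither stage. The mutants were ago18HM, homozygous null in all 3 AGO18 copies (a CRISPR-Cas9 ago18a;b double mutant crossed to a Mu-insertion ago18c mutant), set against ago18HT, their triple heterozygous siblings, both in a mostly B73 background and both sampled at 0.5, 2 and 5 mm. Each of the 24 groups held 2 or 3 libraries, 63 in all. The tables hold cleavage sites and no AGO18 expression, so the genotype labels were not checked against these data.

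Phased small interfering RNAs (phasiRNAs) arise when a microRNA cuts a long noncoding transcript and the fragment is made double-stranded and diced at regular steps from the cut. In grass anthers, miR2118 triggers the 21-nt class before meiosis, and miR2275 triggers the meiotic 24-nt class, which the Dicer-like enzyme DCL5 cuts to size. A further 24-nt class is made before meiosis, and miR2275 is not thought to be its trigger. Argonaute proteins such as AGO18 are thought to carry phasiRNAs. A phasiRNA from the antisense strand pairs perfectly with its own precursor, and a cut there would fall opposite bases 10 and 11 of the small RNA.

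The major small RNAs below are those behind the recurring or shared cis sites described later, written 5′ to 3′ with bases 10 and 11 in capitals. Coordinates are those of the study's locus list, on B73 RefGen_v5 for B73 and on version 1 of each other variety's own assembly. The first 3 lines are one family of near-identical small RNAs on chromosome 5, the next 4 recur within their variety, and the last 3 were shared exactly between loci of different varieties.
B73_24PHAS_28373 (chr5:33502497-33503024): agaagcaaaCGgaucagcugcagc
Oh43_24PHAS_20760 (chr5:32685959-32686456): agaagcaaaCGgaucggcugcagc
TIL11_24PHAS_23338 (chr5:35166401-35167235): agaagcaaaCGgaucggcugcagc
B73_24PHAS_4531 (chr1:192807189-192810169): aauuccuaaUAuaaaaucuacugu
Oh43_24PHAS_25159 (chr6:21978250-21979595): aguucaccaCGagagcagcaagac
Il14H_24PHAS_18786 (chr6:85349082-85349428): cacaaggucGAaaaugucaacgaa
TIL11_24PHAS_37027 (chr8:79696117-79697568): guuauuuucCUauaauguggugac
TIL11_24PHAS_44404 (chr10:75679361-75680922): acgaguacuCUaacauauaagacu
B73_24PHAS_4019 (chr1:172544492-172551593): aauggucuaUAugcugcuggauuc
HP301_24PHAS_14218 (chr5:161418026-161420469): auacacuucUCgcguuaacugcuc

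Nearly every cis site rested on perfect pairing and on very few reads. An Allen score, the authors' penalty for mismatches, of 0 was found at 421 of the 436 listed sites, and all 421 passed with a deposited adjusted p-value of exactly 0. The other 15 sites had scores above 0, and 3 of them passed, at Il14H_24PHAS_2382, TIL25_24PHAS_9786 and B73_24PHAS_4208. The 12 sites that did not pass had adjusted p-values of 0.131 to 1.00. Passing therefore says little more here than that at least part of a read began at a perfectly paired position.

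Reads were recovered from the steps between RPM values, in which the commonest value of a library was taken as 1 read. By this measure 1 RPM stood for 1.35 to 18.7 reads, depending on the depth of the library (median 7.55), and 80.4 to 90.0% of values were whole reads within 0.5%. A passing cis site had a median of 2.00 reads (0.247 RPM), 170 of the 424 sites (40.1%) had at most 1 read, and 24 had at least 10. Values below 1 read occurred at 39 sites, as happens when a read is divided among several matching places. The highest was 41.3 reads, 5.16 RPM, at RIL003_24PHAS_14191, and the highest RPM was 6.0, at TIL25_24PHAS_6645.

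Libraries of similar length differed widely in miR2275 sites. The third ago18HT library at 2 mm held no cis site and only 2 24-PHAS loci with a passing miR2275 site, against 66 and 59 in the other ago18HT libraries of that length. The 2-mm libraries of B73 (20 and 3 loci with a miR2275 site), ago18HM (17, 6 and 7) and TIL11 (7, 3 and 3) were likewise low in miR2275 sites, whereas 2-mm HP301 had 65 and 68 and the 9 teosinte libraries at 1.5 mm had 66 to 73. In TIL11 and the ago18 plants at these lengths, libraries low in miR2275 sites were also low in cis loci, whereas 0.4-mm B73 had more cis loci and fewer miR2275 sites (4 and 1 loci) than 2-mm B73. The part of staging in the comparisons was not tested.

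Cis loci were most numerous in 1.5-mm teosinte anthers. In RIL003, 35, 42 and 38 loci passed at 1.5 mm, against 1, 0 and 0 at 0.4 mm and none in both 0.7-mm libraries. In TIL25, 14, 27 and 30 loci passed at 1.5 mm, against 1, 2 and 2 at 0.4 mm. The groups did not overlap in either variety. The mean difference of log2(loci + 1) between meiotic and premeiotic libraries was 5.09 in RIL003 (exact permutation test, two-sided, p = 0.0179, adjusted p = 0.0476 over 16 tests) and 3.17 in TIL25 (exact permutation p = 0.10, the smallest that 3 against 3 libraries allow, adjusted p = 0.20). In RIL003 the p is also the smallest possible, and leaving out any 1 of its 8 libraries raised the adjusted p to between 0.0762 and 0.127. Meiotic libraries of both varieties were deeper, with 7.31 to 8.0 reads per RPM against 3.20 to 4.73 in RIL003 and with 4.33 to 5.97 against 1.71 to 2.56 in TIL25, and the part of depth in these differences was not tested.

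TIL11, sampled at 5 lengths, showed the number high at one length only. It had 2 and 1 cis loci at 0.4 mm, 2, 1 and 2 at 0.7 mm, 2, 2 and 2 at 1 mm, 26, 22 and 23 at 1.5 mm, and 1, 2 and 1 at 2 mm. The 1.5-mm libraries lay above all 11 others, and the 2-mm libraries lay among the premeiotic ones. With 1.5 and 2 mm joined as meiotic, the difference from the premeiotic lengths was 1.56 on the log2 scale (exact permutation p = 0.173, adjusted p = 0.231). Without the 2-mm anthers, a choice made after the data were seen, it was 3.27 (exact permutation p = 0.0179, adjusted p = 0.0408). Loci with a passing miR2275 site numbered 1 and 1 at 0.4 mm, 0, 5 and 5 at 0.7 mm, 34, 7 and 35 at 1 mm, 66, 73 and 73 at 1.5 mm, and 7, 3 and 3 at 2 mm. Each of the 3 libraries at 1 mm thus had more of them than any at 0.4 or 0.7 mm.

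**Figure D1:**
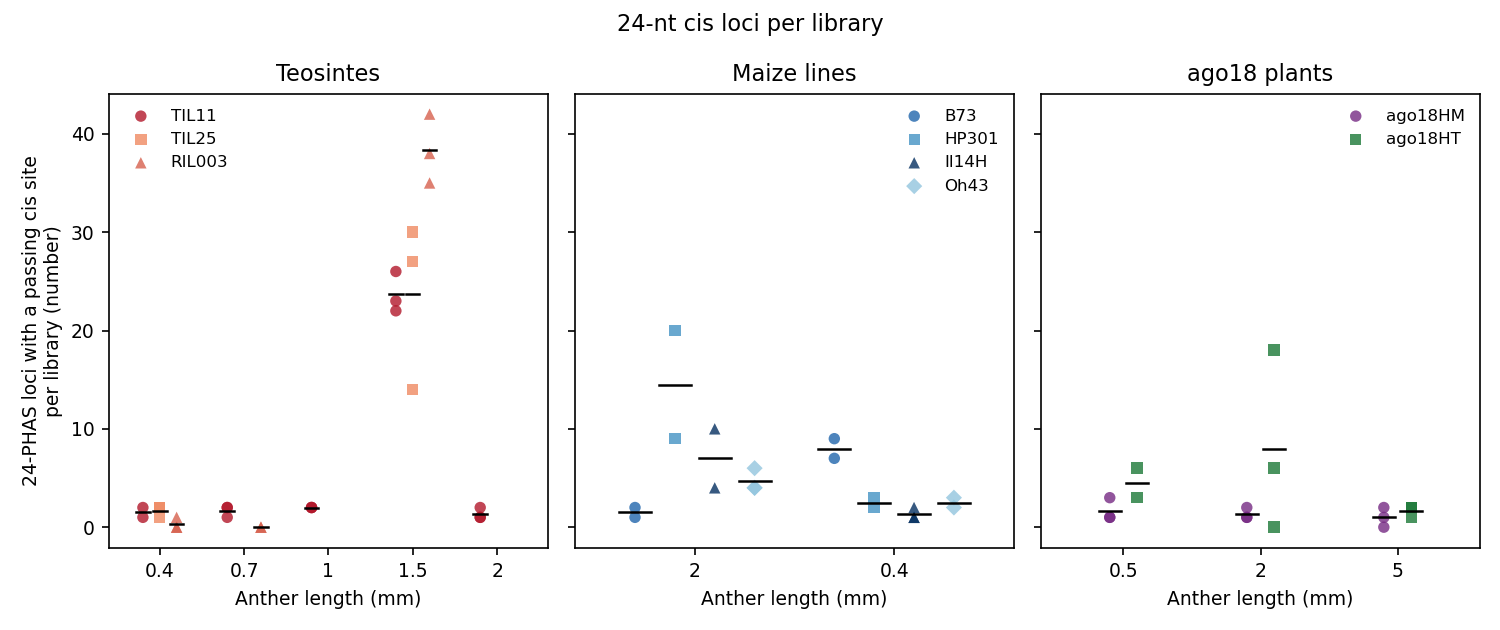
Number of 24-PHAS loci with a passing cis site in each library (points; vertical axis) by anther length in mm (horizontal axis), for teosintes, maize lines and ago18 plants; black lines are group means and colours are varieties or genotypes. The 1.5-mm teosinte libraries hold 14 to 42 loci and the other teosinte libraries 0 to 2, while B73 is the 1 maize line with fewer loci at 2 mm than at 0.4 mm.

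Among the maize lines, 3 had more cis loci in meiotic than in premeiotic anthers and B73 had fewer. HP301 had 9 and 20 loci at 2 mm, against 2 and 3 at 0.4 mm. Il14H had 4 and 10 at 2 mm, against 2, 1 and 1 at 0.4 mm. Oh43 had 4, 4 and 6 at 2 mm, against 2 and 3 at 0.4 mm. B73 had 2 and 1 at 2 mm, against 7 and 9 at 0.4 mm. Passing phasiRNA sites of every kind in B73 numbered 7 and 3 at 2 mm, against 91 and 119 at 0.4 mm. In none of the 4 lines did the 2 stages overlap. Joined over the lines, the difference was 0.72 (exact permutation p = 0.128, adjusted p = 0.204), so no stage change passed the test in maize as a whole.

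Over all 7 varieties, meiotic libraries had more cis loci and more cis signal than premeiotic libraries. The difference of log2(loci + 1) was 2.04, from means of 3.36 in 21 meiotic and 1.32 in 22 premeiotic libraries (permutation p = 2.00e-05, 100000 relabellings within variety, adjusted p = 0.000107). Summed RPM over passing cis sites was 18.1 to 24.0 in RIL003, 10.7 to 13.2 in TIL11 and 5.10 to 24.1 in TIL25 at 1.5 mm, and at most 1.94 in any premeiotic library of the 7 varieties. At 2 mm it was 1.81 and 4.03 in HP301, 0.530 and 2.85 in Il14H, and 1.39 to 3.50 in Oh43. B73 had the opposite order, with 0.472 and 0.231 RPM at 2 mm against 1.06 and 1.94 RPM at 0.4 mm, and 2-mm TIL11 had 0.142 to 0.825 RPM. On the log2(RPM + 0.1) scale the meiotic mean was higher by 2.96 (permutation p = 2.00e-05, adjusted p = 0.000107). Within libraries, 24-nt cis loci rose relative to 21-nt cis loci by 4.8 on the log2 scale (permutation p = 1e-05, the smallest these relabellings give, adjusted p = 0.000107). Part of this was a fall of 21-nt cis loci, seen in every variety but TIL25. In B73 the 21-nt cis loci numbered 20 and 25 at 0.4 mm and 0 and 0 at 2 mm. In TIL25 they rose from 9, 8 and 8 at 0.4 mm to 28, 27 and 24 at 1.5 mm. Relative to PHAS loci hit in trans by 24-nt phasiRNAs the difference was -0.10 (permutation p = 0.819, adjusted p = 0.874). On 24-PHAS loci, 102 of 224 pairs of a trans and a miR2275 position coincided. The part of miR2275 ends in the trans counts was not tested.

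The locus classes of the study, premeiotic or meiotic by small RNA abundance, are at hand for B73, HP301, Il14H, Oh43 and TIL11. They were assigned from separate small RNA libraries, which the paper made from the same anthers as the cleavage libraries used here. Since the classes are defined by small RNA abundance in premeiotic anthers, the stage tests by class are not independent of that definition. In these 5 varieties the cis loci seen in meiotic anthers comprised 82 meiotic-class loci and 1 premeiotic-class locus, and those seen in premeiotic anthers 12 meiotic-class and 19 premeiotic-class loci. Meiotic-class cis loci were more numerous in meiotic anthers by 1.69 on the log2 scale (exact permutation p = 0.000173, adjusted p = 0.000693, 15 against 14 libraries). Premeiotic-class cis loci fell by 0.86 on the log2 scale (exact permutation p = 0.00364, adjusted p = 0.0116). That fall no longer passed the exact permutation test when a site needed at least 2 reads (-0.38, adjusted p = 0.20) or at least the RPM of 1 read in the shallowest library (-0.33, adjusted p = 0.0808).

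Most premeiotic cis loci of B73 were of the premeiotic class. In its 0.4-mm libraries 6 and 7 premeiotic-class loci passed, beside 1 and 2 meiotic-class loci. Of all B73 24-PHAS loci, 11 of 75 premeiotic-class loci (14.7%, 95% Wilson interval 8.39 to 24.4) and 3 of 154 meiotic-class loci (1.95%, 0.665 to 5.57) had a cis site in B73 plants. In TIL11 the shares were 3 of 45 premeiotic-class loci (6.67%, 2.29 to 17.9) and 40 of 156 meiotic-class loci (25.6%, 19.4 to 33). HP301 had 22 of 176 meiotic-class loci (12.5%, 8.40 to 18.2), Il14H 12 of 157 (7.64%, 4.43 to 12.9) and Oh43 9 of 186 (4.84%, 2.57 to 8.94). Of premeiotic-class loci HP301 had 3 of 47 (6.38%, 2.19 to 17.2), Il14H 2 of 35 (5.71%, 1.58 to 18.6) and Oh43 1 of 79 (1.27%, 0.224 to 6.83). In each of these lines the intervals of the classes overlapped. These intervals cover counting error only, and loci of a variety share their libraries.

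In the ago18 plants, cis loci numbered 0 to 6 in every library except 1 of ago18HT at 2 mm, which had 18. At 0.5 mm there were 1, 3 and 1 loci in ago18HM, against 6 and 3 in ago18HT. At 2 mm there were 1, 2 and 1 in ago18HM, against 18, 6 and 0 in ago18HT. At 5 mm there were 1, 0 and 2 in ago18HM, against 2, 1 and 2 in ago18HT. The genotypes overlapped at each length. Over all lengths the difference of log2(loci + 1) was -0.87 (exact permutation test within lengths, two-sided, p = 0.0975, adjusted p = 0.20, 9 against 8 libraries). Without the third ago18HT library at 2 mm, the one with no cis site and 2 miR2275 loci, it was -1.16 (exact permutation p = 0.0115, adjusted p = 0.0307), and without the first, with 18 loci, it was -0.55 (exact permutation, adjusted p = 0.273). When a site needed at least the RPM of 1 read in the shallowest library, itself an ago18HM library, the difference was 0.01 (exact permutation p = 1.00, adjusted p = 1.00). Summed cis RPM differed by -0.30 on the log2 scale (exact permutation p = 0.705, adjusted p = 0.805), and by 0.28 with that minimum.

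Cis sites passed at 5 loci in ago18HM and at 26 in ago18HT, of which 3 were common to both. The 3 were also among the 14 loci of B73 plants. Passing phasiRNA sites of every kind at 2 mm numbered 8, 9 and 5 in ago18HM, against 55, 32 and 1 in ago18HT. Of the 20 loci of 2-mm ago18HT anthers, 1 was also among the 2 loci of 2-mm B73 anthers, namely B73_24PHAS_28373. In ago18HM 2 of 154 meiotic-class B73 loci (1.30%, 0.357 to 4.61) and in ago18HT 21 of 154 (13.6%, 9.10 to 19.9) had a cis site. Of the 75 premeiotic-class loci, 3 had one in ago18HM (4.0%, 1.37 to 11.1) and 5 in ago18HT (6.67%, 2.88 to 14.7). The libraries with the most miR2275 sites were all ago18HT, and the shares were not tested. B73_24PHAS_53482 had the strongest site of ago18HT, 1.21 and 0.998 RPM in the first and second 2-mm libraries, and was not listed in any ago18HM library. B73_24PHAS_4228 (0.672 and 0.125 RPM), B73_24PHAS_30716 (0.579 and 0.125 RPM) and B73_24PHAS_182 (0.269 and 0.250 RPM) passed in the same pair of libraries.

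B73_24PHAS_4531, a premeiotic-class locus that overlaps no RefSeq gene, was the most frequent site of short ago18 anthers. It had 2.23, 1.43 and 0.451 RPM in the 3 ago18HM libraries at 0.5 mm, against 0.110 and 0.161 RPM in the 2 ago18HT libraries. All ago18HM values lay above both ago18HT values, but they stood for 3, 7.71 and 1 reads, against 1 and 1, and 1 RPM stood for 1.35, 5.40 and 2.22 reads in the ago18HM libraries, against 9.06 and 6.22 in ago18HT. The same position had 0.452 RPM in 1 of 2 B73 libraries at 0.4 mm and was absent from every library of 2 or 5 mm. B73_24PHAS_51550, also premeiotic in class, had 0.221 and 0.161 RPM in 0.5-mm ago18HT and no site in ago18HM.

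No difference between anther lengths passed the test in the ago18 plants. The 2-mm libraries differed from the 0.5-mm libraries by 0.01 in log2(loci + 1) (exact permutation p = 0.980, adjusted p = 0.980), and the 5-mm from the 2-mm libraries by -0.65 (exact permutation p = 0.405, adjusted p = 0.498). All 6 libraries at 5 mm held 0 to 2 cis loci, with 0 to 2 loci carrying a miR2275 site.

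Teosintes and maize lines were compared over variety means, with the variety as the unit. In meiotic anthers, teosintes had a higher mean by 1.62 on the log2 scale (exact permutation p = 0.143, adjusted p = 0.208, 3 against 4 varieties). At 0.4 mm the difference was -0.98 (exact permutation p = 0.114, adjusted p = 0.203), and with the minimum RPM it was 0.05 (exact permutation p = 0.714). Neither passed, the smallest p this design allows being 0.0286. At 0.4 mm 1 RPM stood for 1.71 to 8.99 reads in teosintes and 6.63 to 13.2 in maize lines, and at the meiotic stage the anther lengths differ as well. According to the paper, maize grew in greenhouses and teosintes in a growth chamber with shorter days. Growth conditions therefore cannot be told apart from this comparison.

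Most cis positions that could be set against a miR2275 cut stood in one register to it. A passing miR2275 site was listed in some library on 102 of the 228 loci (44.7%). Such a site was listed on 499 24-PHAS loci in all. Their share of all 24-PHAS loci was not computed, so the 44.7% has no comparison. The 102 loci gave 111 pairs of a cis and a miR2275 position. In 108 pairs the cis position lay downstream, by a median of 252 nt. Divided by 24, the distance left a remainder of 12 in 79 pairs (71.2%, 95% Wilson interval 62.1 to 78.8), and no other remainder occurred in more than 4. A remainder of 12 is the one that geometry gives to the antisense strand of a 24-nt duplex phased from the miR2275 cut, with 2-nt overhangs and a cut opposite base 10. Since the cis position was predicted from where the small RNA pairs, this describes the origin of the small RNAs and not whether a cut took place.

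**Figure D2:**
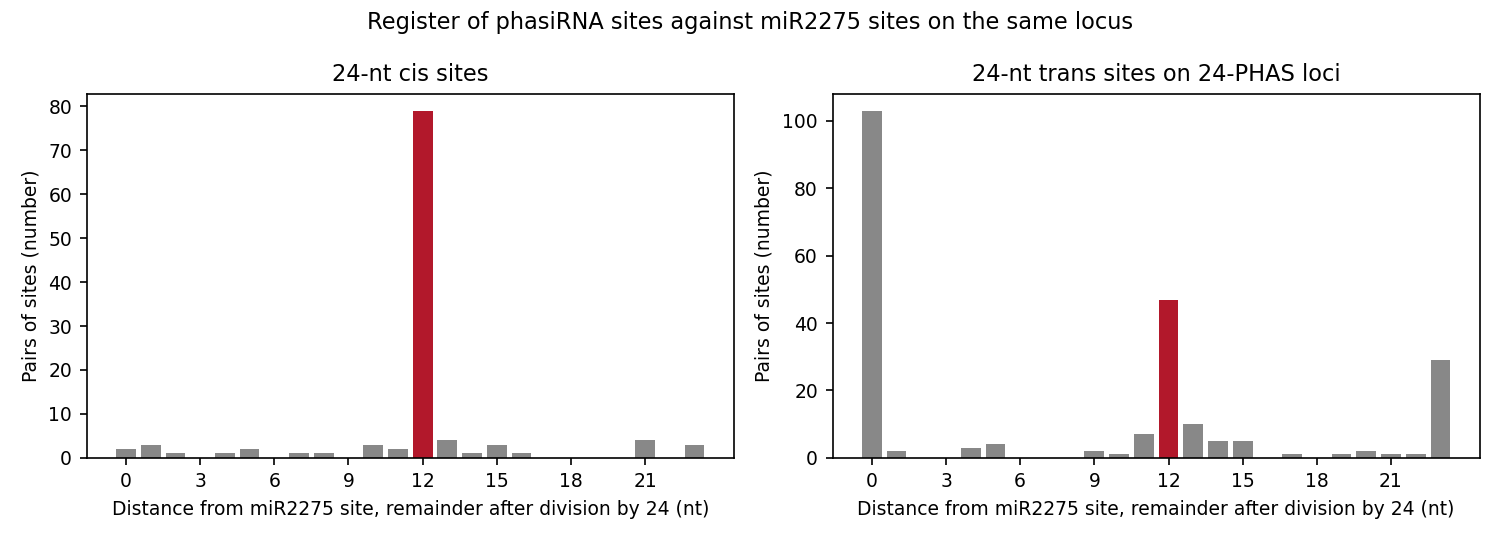
Number of pairs of a phasiRNA site and a miR2275 site on the same 24-PHAS locus (vertical axis) by the remainder of their distance after division by 24, in nt (horizontal axis), for cis sites (left) and trans sites (right); red marks a remainder of 12. Of the cis pairs 79 of 111 stand at 12, and of the trans pairs 47 of 224 stand at 12 and 103 at 0.

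In every variety some pairs stood in this register. It held for 18 of 30 pairs in RIL003, 20 of 26 in TIL25, 15 of 23 in TIL11, 11 of 13 in HP301, 9 of 11 in B73, 4 of 5 in Il14H and 2 of 3 in Oh43. Both premeiotic-class pairs and 39 of the 53 meiotic-class pairs were in register. The 79 positions lay 1 to 46 whole 24-nt steps beyond the offset of 12, with a median of 8 and with 76 of them within 20 steps. The 24-nt trans sites on 24-PHAS loci were in this register in 47 of 224 pairs (21%, 16.2 to 26.8), while 102 of the 224 coincided with the miR2275 position itself, which no cis site did. For 21-nt cis sites against miR2118 the matching remainder is 9 after division by 21, and 84 of 126 pairs (66.7%, 58.1 to 74.3) had it.

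The signal at cis sites was mostly below the background that the deposited ratio sets it against. This ratio was taken as (site RPM + 1)/(background RPM + 1), a form inferred from the values, from which the background was recovered. Recovered backgrounds were mostly whole reads (89.1%), with a median of 7.94 reads for passing cis sites. Whether the background is a mean, a maximum or a sum of the signal around a site is not stated in the sources used here. A ratio below 1 therefore does not show that a site had less signal than single positions near it. For the 424 passing cis sites the ratio had a median of 0.654 (quartiles 0.442 and 0.864). It exceeded 1 at 54 sites (12.7%, 95% Wilson interval 9.89 to 16.2), against 24.2% of all listed phasiRNA sites. The interval covers counting error only, since the 424 sites lay on 228 loci and the same site recurred across libraries. The median site had 0.247 RPM, and the median background was 1.06 RPM. Of the 2375 listed miR2275 sites on 24-PHAS loci, 1462 passed (61.6%). For these the ratio had a median of 8.84 and exceeded 1 at 1450 sites (99.2%). For the 615 passing 21-nt cis sites it had a median of 1.12 and exceeded 1 at 372 (60.5%).

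The same comparisons were made within libraries. In 25 libraries with at least 3 sites of each kind, the median log2 ratio was -0.49 ± 0.34 for 24-nt cis sites and 2.71 ± 1.93 for miR2275 sites (mean ± SD over libraries), lower for cis sites in 24 of the 25 (permutation test of the within-library difference, p = 1e-05, the smallest the 100000 sign changes give, adjusted p = 2.00e-05). In 14 libraries with at least 3 of each, it was -0.41 ± 0.38 for 24-nt and 0.11 ± 0.16 for 21-nt cis sites, lower for 24-nt sites in 13 (permutation p = 0.000750, adjusted p = 0.000750). Both comparisons were chosen after the data were seen. The sets in the first were filtered unequally, since 61.6% of listed miR2275 sites passed, against 97.2% of listed 24-nt cis sites. The part of this filter in that difference was not tested. A median ratio below 1 was found in all 7 varieties, at 0.535 in RIL003 and 0.814 in Il14H as the extremes, and in both ago18HM (0.775) and ago18HT (0.734). Meiotic cis sites had a median ratio of 0.611 and premeiotic ones of 0.872.

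**Figure D3:**
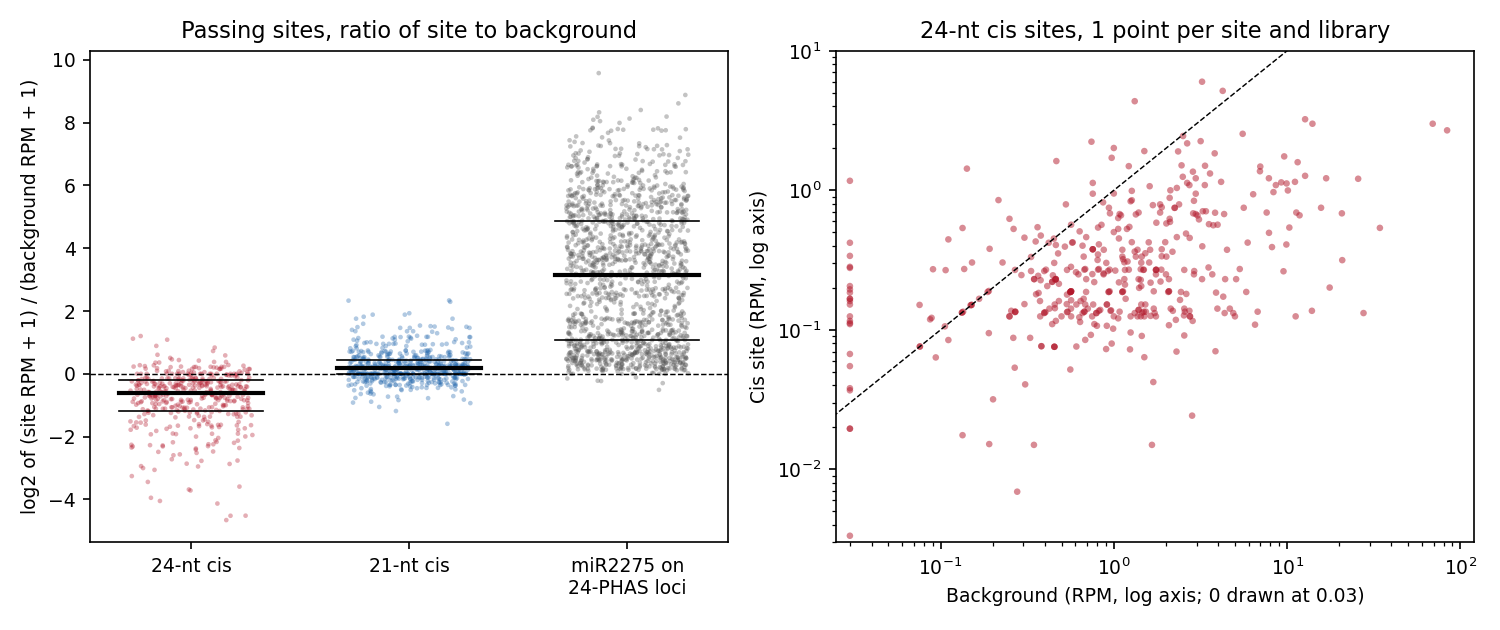
Left, log2 of the ratio of site to background, each in RPM + 1, for passing 24-nt cis sites, 21-nt cis sites and miR2275 sites (points; thick line, median; thin lines, quartiles; dashed line, equal signal). Right, RPM of each passing 24-nt cis site against its background RPM on log axes, with equality dashed and a background of 0 drawn at 0.03; 54 of 424 sites exceed their background.

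Among the named loci, a few lay above their background throughout or far below it. TIL25_24PHAS_6645 had 2.01, 6.0 and 4.35 RPM at 1.5 mm, above backgrounds of 1.0, 3.23 and 1.32 RPM in every library, and its cis position lay 300 nt (remainder 12) from a miR2275 site. HP301_24PHAS_22581 had 0.268 and 0.304 RPM at 2 mm over backgrounds of 0.107 and 0.228 RPM. Far below, TIL11_24PHAS_44404 had 1.59, 3.0 and 2.69 RPM at 1.5 mm under backgrounds of 11.5, 69.2 and 83.8 RPM, and 0.109 RPM in 1 of 3 libraries at 1 mm. Both counterparts with the same small RNA also lay below their backgrounds, HP301_24PHAS_25984 with 0.750 and 0.684 RPM at 2 mm under 5.62 and 20.7 RPM, and B73_24PHAS_53482 with 1.21 and 0.998 RPM in ago18HT under 25.7 and 10.1 RPM.

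Of the 228 loci, 111 passed in at least 2 libraries and 117 passed in 1 library. At 108 of the 111 recurring loci the position was the same in every library. Counted as the study counts a positive pair, in at least 2 replicates of a group, 115 of 265 member pairs listed in a group were positive (43.4%), against 1.89% of all phasiRNA pairs listed in a group. Of the 265 pairs, 119 were listed in at least 2 replicates. Nearly all listed cis sites passed, against 5.41% of all listed phasiRNA sites, so these shares do not compare recurrence alone. Of the loci with a passing cis site, 37 of 58 recurred within a group in RIL003, 24 of 43 in TIL25, 22 of 43 in TIL11, 7 of 25 in HP301, 7 of 26 in ago18HT, 3 of 14 in B73, 3 of 10 in Oh43, 2 of 14 in Il14H and 2 of 5 in ago18HM.

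Among the sites named, those of 1.5-mm teosinte anthers had the highest RPM, but ties in naming teosinte loci were broken by higher mean RPM. Maize loci were named mainly for recurrence, so the named values do not compare varieties. Over all passing meiotic sites the median RPM was 0.270 in RIL003, 0.264 in TIL11 and 0.335 in TIL25. It was 0.275 in Oh43, 0.231 in B73, 0.152 in HP301 and 0.133 in Il14H. RIL003_24PHAS_14191 had 2.45, 2.17 and 5.16 RPM, RIL003_24PHAS_2325 had 1.09, 0.541 and 3.0 RPM, RIL003_24PHAS_27036 had 1.91, 0.946 and 1.25 RPM, and RIL003_24PHAS_8042 had 0.883, 1.50 and 1.71 RPM. None of these 4 was listed at 0.4 or 0.7 mm. TIL11_24PHAS_37027 had 2.25, 1.12 and 1.84 RPM and TIL11_24PHAS_20982 had 0.793, 0.750 and 1.27 RPM at 1.5 mm, and neither passed at another length. In TIL25, besides TIL25_24PHAS_6645, 3 named loci passed in every 1.5-mm library and in none at 0.4 mm: TIL25_24PHAS_9480 (0.502, 1.22 and 1.48 RPM), TIL25_24PHAS_13030 (0.335, 1.15 and 0.567 RPM) and TIL25_24PHAS_2121 (0.167, 0.462 and 0.946 RPM). Replicates of one group thus differed by several fold at single sites.

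Recurring sites of HP301, Il14H and B73 were mostly below 1 RPM. At 2 mm HP301 had 7 loci in both libraries, among them HP301_24PHAS_14222 (0.138 and 0.354 RPM), HP301_24PHAS_14218 (0.0407 and 0.397 RPM), HP301_24PHAS_9688 (0.161 and 0.152 RPM) and HP301_24PHAS_14236 (0.0729 and 0.0699 RPM). The major small RNAs of HP301_24PHAS_14218 and HP301_24PHAS_14222 differ by a single base (G12U, counted from the 5′ end of the first), so their sites share sequence, and both lay 204 nt from a miR2275 position. Il14H_24PHAS_2443 had 0.133 and 0.231 RPM at 2 mm. In B73 at 0.4 mm, B73_24PHAS_4019 had 0.0757 and 0.458 RPM and B73_24PHAS_55682 had 0.0757 and 0.153 RPM, that is, 1 to 6 reads.

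A few loci showed a cis site both early and late. There were 14 loci with a passing cis site in premeiotic and again in meiotic or postmeiotic anthers, 13 of them at 1 position. At the exception, B73_24PHAS_4208, the early and the late site lay at different positions (934 and 1063). B73_24PHAS_28373 passed in 15 of 21 B73 and ago18 libraries, at 0.337 and 0.231 RPM in 2-mm B73 and 0.303 and 0.305 RPM in 0.4-mm B73, so that the stages overlapped. TIL11_24PHAS_23338 passed in 10 of 14 TIL11 libraries, at 0.127 to 0.841 RPM from 0.7 to 2 mm. Oh43_24PHAS_20760 passed in all 5 Oh43 libraries, at 0.0905, 0.139 and 0.335 RPM at 2 mm against 0.302 and 0.211 RPM at 0.4 mm. The small RNAs of TIL11_24PHAS_23338 and Oh43_24PHAS_20760 are identical, and that of B73_24PHAS_28373 differs from them by A16G, counted from its 5′ end. B73_24PHAS_28373 passed in all 3 ago18HM libraries at 2 mm (0.424, 0.748 and 0.126 RPM), against 1 of 3 ago18HT libraries (1.07 RPM).

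Most of these sites were also listed on annotated transcripts. A transcript was counted as carrying the same site when the same small RNA had the same score and RPM on it in the same library. This was so for 142 of the 424 passing sites (33.5%) and for 58 of the 228 loci. Of the 14 loci seen early and late, 11 were among the 58, and 3 (HP301_24PHAS_2001, B73_24PHAS_13770 and B73_24PHAS_4208) were not. B73_24PHAS_28373 shared its site with Zm00001eb222570_T001 in all 15 libraries and overlaps the RefSeq protein-coding gene LOC100382880 (chr5:33502611-33507306, Zm-B73-REFERENCE-NAM-5.0). Reads at such a position cannot be divided between the PHAS precursor and the gene's own transcript.

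**Figure D4:**
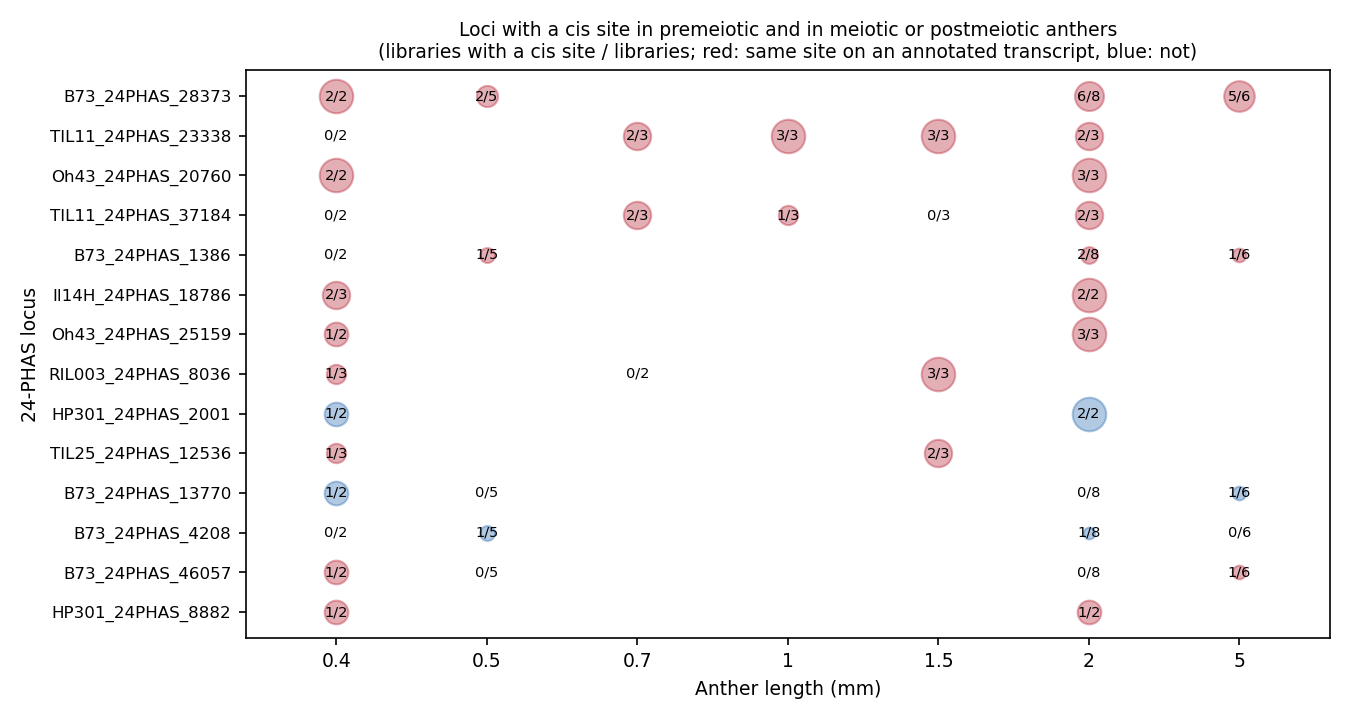
The 14 loci with a passing cis site in premeiotic and in meiotic or postmeiotic anthers (rows) by anther length in mm (columns); each label gives libraries with a cis site over libraries of that genome and length, circle area follows that share, red marks loci whose site was also listed on an annotated transcript and blue the 3 that were not. B73_24PHAS_4208 has different positions early and late, and B73_24PHAS_28373 has the site in 2 of 2 libraries at 0.4 mm and in 5 of 6 at 5 mm.

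Other named sites that were also listed on a transcript follow. RIL003_24PHAS_14191, RIL003_24PHAS_2325 and RIL003_24PHAS_27036, whose values are given above, shared their sites with a transcript in 3 libraries each. Oh43_24PHAS_25159 had 1.09, 0.835 and 1.90 RPM at 2 mm, against 0.633 RPM in 1 of 2 libraries at 0.4 mm. Oh43_24PHAS_25921 had 0.272, 0.139 and 0.783 RPM at 2 mm and none at 0.4 mm. Il14H_24PHAS_18786 had 0.133 and 1.04 RPM at 2 mm, against 0.0958 and 0.259 RPM in 2 of 3 libraries at 0.4 mm. B73_24PHAS_1386 had 0.135 RPM in 1 of 2 B73 libraries at 2 mm and 0.110 to 0.333 RPM in 3 ago18 libraries, and lies within LOC100282966 (chr1:37052838-37058248). TIL11_24PHAS_37184 had 0.508 and 0.544 RPM in 2 of 3 libraries at 0.7 mm, 0.187 RPM in 1 at 1 mm and 0.206 and 0.302 RPM in 2 at 2 mm, and was not found at 1.5 mm, where most other TIL11 cis loci were. TIL25_24PHAS_12536 had 0.335 and 0.378 RPM at 1.5 mm, against 0.586 RPM, which was 1 read, at 0.4 mm. RIL003_24PHAS_8036 had 1.36, 0.392 and 0.691 RPM at 1.5 mm, against 0.0846 RPM in 1 library at 0.4 mm, the only cis site of any premeiotic RIL003 library. Its match to a transcript was found in that 0.4-mm library only.

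RIL003 had the largest share of loci with such a transcript, 35 of 58, against 5 of 43 in TIL25 and 4 of 43 in TIL11. For some classes of PHAS loci the paper reports far more overlap with exons in this variety than in the others. As a possible reason it proposes that the transcriptome of this variety was built from the study's anther data by other methods. What the RIL003 transcript models cover was not tested. No share was computed over all RIL003 loci, so the share does not set its cis loci apart. Of the 35 B73-genome member loci, 13 overlapped a RefSeq gene (37.1%), against 61 of all 229 B73 24-PHAS loci (26.6%). Leaving out every locus with a matching transcript left the stage difference over all varieties at 1.79 (permutation, adjusted p = 0.00144).

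Some small RNAs had a cis site in more than one variety. Major small RNAs were at hand for 127 of the 228 loci, all but 1 of them 24 nt long, and 17 of the 105 distinct sequences belonged to passing loci of at least 2 varieties, 39 loci in all. Counting loci with or without a cis site, 55 of the 105 sequences (52.4%) occurred in at least 2 of the 5 varieties, beside 214 of the 716 distinct sequences of all 24-PHAS loci (29.9%). A sequence at loci of several varieties had more chances to include a passing locus, so these shares do not compare conservation. In all 17 the loci lay on the same chromosome, and in 16 they had the same class, the exception holding B73_24PHAS_4228 and TIL11_24PHAS_3386 (meiotic) and HP301_24PHAS_1964 (premeiotic). TIL11_24PHAS_44404, HP301_24PHAS_25984 and B73_24PHAS_53482 on chromosome 10 share one such sequence, and B73_24PHAS_4019, HP301_24PHAS_1870 and Il14H_24PHAS_2295 on chromosome 1, all premeiotic in class, share another.

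Where both a cis and a miR2275 site were listed at 2 or more loci of such a set, their spacing was the same in each variety. This held for all 7 sets with the necessary sites. The distance was 204 nt at both B73_24PHAS_30716 and HP301_24PHAS_14218, 180 nt at B73_24PHAS_4228, HP301_24PHAS_1964 and TIL11_24PHAS_3386, and 252 nt at TIL11_24PHAS_28785 and Il14H_24PHAS_18259. Of the 7 sets 5 had a remainder of 12. The other 2, with spacings of 481 nt at B73_24PHAS_4282 and TIL11_24PHAS_3424 and of 405 nt at Il14H_24PHAS_2443 and TIL11_24PHAS_3425, were out of register by the same amount in both varieties. Of other loci with a shared small RNA, TIL11_24PHAS_3393 (0.529, 0.187 and 0.425 RPM) and TIL11_24PHAS_3552 (0.264, 0.187 and 0.142 RPM) passed in all 3 TIL11 libraries at 1.5 mm.

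The member small RNAs were set beside those of all 24-PHAS loci of the 5 listed varieties. A 5′ A began 74.8% of the 127 and 76.9% of all 1110, and a 5′ C began 13.4% of the 127 and 7.12% of all. Their GC content was 42.5% ± 8.01 (mean ± SD over loci) against 43.4% ± 8.62, and their loci had a median length of 1605 against 1538 bases. These are descriptions, with no test over loci.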

How the data were processed

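Members and lists were chosen with earlier results of these data known. The authors mapped nanoPARE reads of each sample with the nanoPARE pipeline and its EndCut step, without pooling replicates. Versions are not given in the sources used here. Deposited site signal is in RPM, as the authors scaled it to library size. The deposited Allen score is the authors' mismatch penalty, and a deposited ratio sets the signal at a site over that around it. The authors also deposited an adjusted p-value per site. Reads were recovered from RPM steps, and the background as (RPM + 1)/fold - 1. A locus passed at an adjusted p below 0.05. The statistic was the difference of mean log2(number + 1), or of log2(RPM + 0.1), tested by exchanging libraries within variety, genotype or length, exactly or with 100000 relabellings (seed 20240513), two-sided, and 16 p-values were adjusted by Benjamini-Hochberg. Replicates came from distinct plants according to the study. Loci named in maize or ago18 plants are those recurring in at least 2 replicates. In each teosinte they are the 5 passing in the most libraries, with ties broken by higher mean RPM. Also named are the highest RPM per variety, loci in every library of a variety, and up to 10 with a shared small RNA. Loci outside this rule that are named to account for a small count were picked after their values were seen. Positions and small RNAs came from the study's locus list, which covers 127 of 228 loci; TIL25 and RIL003 24-PHAS rows were not used here. RefSeq gene positions are those of Zm-B73-REFERENCE-NAM-5.0. The permutation test was tested on simulated data. Alternatives were other thresholds on p, reads and RPM, no log, other pseudocounts, a replicate block and leaving out libraries. Python 3.11.15, pandas 2.3.3, NumPy 2.4.6 and SciPy 1.17.1 were used.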

Additional observations from a re-analysis of the deposited data

Results flagged for a closer look

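The stage difference in cis loci ran in opposite directions in B73 and in other varieties. Every 2-mm B73 library lay below every 0.4-mm B73 library, a mean log2 difference of -1.87. Passing phasiRNA sites of every kind in B73 numbered 7 and 3 at 2 mm, against 91 and 119 at 0.4 mm. Every meiotic library lay above every premeiotic one in HP301 (2.06), Il14H (1.70), Oh43 (0.69), TIL25 (3.17) and RIL003 (5.09). The difference between varieties was not tested. No group held the 4 libraries needed to look for single libraries far from the rest.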

How the results depend on the processing

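Of 519 alternatives to the tests and counts, 490 kept their direction and side of the threshold, and 16 changed the sign of a difference that passed neither way. When each site had to reach the RPM worth 1 read in the least deep library compared, ago18HM minus ago18HT was 0.01 in loci and 0.28 in summed RPM, and teosintes minus maize lines at 0.4 mm was 0.05. The ago18 difference between 2 and 0.5 mm was -0.01 without sites below 1 read, -0.43 without loci matching a transcript and -0.10 with within-stratum means. The 24-nt cis minus 24-nt trans difference was 0.44 over every listed site. With the replicate block (labels exchanged only between libraries with the same number), the RIL003 stage difference of 5.09 had an adjusted p of 0.148, and the block changed no other call. Same-numbered libraries deviated together at every pair (r over 0.1) in 0 of the 14 group pairs with 3 numbers, so the numbers were not taken to pair samples. Leaving out 1 library moved the RIL003 difference between 5.03 and 5.29, with every adjusted p above 0.05, since fewer relabellings remain. It moved the ago18HM minus ago18HT difference between -1.16 and -0.55 in loci and between -0.70 and 0.18 in summed RPM, the ago18 difference between 2 and 0.5 mm between -0.48 and 0.37, and 24-nt cis minus 24-nt trans between -0.26 and 0.02. Leaving out the 2-mm anthers gave a TIL11 stage difference of 3.27. Premeiotic-class loci differed by -0.38 with at least 2 reads and by -0.33 with the minimum RPM. With the mean of within-variety differences, 24-nt cis minus 24-nt trans was -0.63 (permutation, adjusted p = 0.0989), against -0.10. Recurring positions numbered 108, or 107 by locus and 111 in any 2 libraries of a variety, with B73, ago18HM and ago18HT counted apart (104 distinct loci recurred within a group). Alternatives without sites below 1 read, without loci matching a transcript, without 2-mm TIL11, at 2 mm only, and with within-stratum means were added after the data were seen. With 2 or 3 libraries per group and a median of 2.00 reads per site, a locus not listed in a library was not detectable at its depth, which does not show its absence.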
